A study of Mus musculus with 9 samples.

Results

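Trp53, the gene of the tumour suppressor p53, and 9 of its transcriptional targets were followed across 9 libraries of polyA RNA from mice. The 10 genes were taken by symbol from a table of 22173 genes, and all 10 were present: Trp53, Mdm2, Cdkn1a, Btg2, Ccng1, Gadd45a, Bax, Phlda3, Trp53inp1 and Gdf15. Their label, cholangiocyte, names the epithelium of the bile ducts. Groups were a sham operation, ligation of the bile duct (BDL), which stops the flow of bile, or BDL plus senkyunolide A, a plant phthalide, and each group had 3 libraries. Ligation was common to the BDL and the BDL plus senkyunolide A groups. Strain, age, sex, time after surgery, dose and the way of isolating the cells are not given in the sources.

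p53 is a transcription factor that is kept low by MDM2, a ubiquitin ligase that marks it for degradation and is itself a p53 target. When DNA damage, oxidative stress or nucleolar stress weakens this loop, p53 protein accumulates and binds response elements made of a pair of decamers. Its targets halt the cell cycle, favour mitochondrial apoptosis, or signal to other tissues, and in the liver Cdkn1a is known to rise after partial hepatectomy. Because p53 is controlled mainly as a protein, the RNA of Trp53 is not a measure of its activity.

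Promoters are shown for the 3 genes that passed the test after ligation, Phlda3, Btg2 and Bax. That of Cdkn1a is added because it held a pair of matches to the p53 decamer consensus. Each sequence is the 250 bases before the RefSeq start in GRCm38.p6, 5′ to 3′ on the strand of the gene, and capitals mark matches to the p53 decamer consensus or to CATG, the core of strong p53 decamers. The windows are chr1:135765835-135766084 on the plus strand for Phlda3, chr1:134079156-134079405 on the minus strand for Btg2, chr7:45466899-45467148 on the minus strand for Bax, and chr17:29090729-29090978 on the plus strand for Cdkn1a.
Phlda3: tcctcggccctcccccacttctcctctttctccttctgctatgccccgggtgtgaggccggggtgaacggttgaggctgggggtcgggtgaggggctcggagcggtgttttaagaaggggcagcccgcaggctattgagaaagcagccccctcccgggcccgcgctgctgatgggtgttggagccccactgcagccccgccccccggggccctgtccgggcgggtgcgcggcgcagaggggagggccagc
Btg2: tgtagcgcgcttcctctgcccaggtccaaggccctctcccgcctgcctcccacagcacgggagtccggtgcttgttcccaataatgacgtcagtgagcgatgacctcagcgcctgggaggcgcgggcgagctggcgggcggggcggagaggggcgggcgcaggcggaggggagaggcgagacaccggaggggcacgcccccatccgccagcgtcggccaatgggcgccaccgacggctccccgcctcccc
Bax: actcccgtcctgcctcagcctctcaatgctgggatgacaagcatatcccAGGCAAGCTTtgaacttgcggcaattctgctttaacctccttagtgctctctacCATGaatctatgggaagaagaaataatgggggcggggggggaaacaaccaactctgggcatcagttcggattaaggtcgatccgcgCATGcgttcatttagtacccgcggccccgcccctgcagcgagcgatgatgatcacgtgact
Cdkn1a: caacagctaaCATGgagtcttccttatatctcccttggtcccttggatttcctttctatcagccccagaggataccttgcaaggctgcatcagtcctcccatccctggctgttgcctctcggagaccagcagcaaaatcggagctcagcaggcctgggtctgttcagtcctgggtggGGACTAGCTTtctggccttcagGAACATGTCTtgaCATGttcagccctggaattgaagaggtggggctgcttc

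The decamer consensus and CATG both read the same on either strand, and a CATG can lie inside a decamer. RefSeq gave promoters for 9 of the 10 genes, Trp53inp1 having no entry. Cdkn1a held 2 decamers within the allowed spacer of up to 13 bases, which begin 73 and 51 bases before the first of its 2 RefSeq starts. The second of them is followed directly by 10 bases that hold the CATG beginning 38 bases before this start. Those bases miss the consensus only in their first base, so the search did not count this adjoining pair. The window of the other start held no decamer and no CATG. A pair that met the rule was found in 0.0639% of the 32851 promoters of the same length. A lone decamer was found in the windows of Trp53, Mdm2, Ccng1, Bax and Gadd45a, and at least 1 decamer in 7.13% of all promoters. Bax also held 2 CATG, as did the first window of Gdf15, and Gadd45a held 1. This motif was found in 53.9% of all promoters. The windows of Phlda3 and Btg2 held no match to either motif. Bases outside the windows, introns included, were not searched, so the search cannot show whether a gene has a p53 site elsewhere.

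Values are FPKM, fragments normalised to transcript length and to the mapped fragments of each library, so levels of different genes can be compared. Depth was estimated by taking the most common low value of FPKM times transcript length as 1 fragment. It was 27.3 to 33.8 M (mega) fragments per library. Hepatocyte transcripts led the libraries: 30 hepatocyte markers took 24.1% to 28.5% of the summed FPKM in sham. Their share was 18.1% to 23.8% after ligation, and with senkyunolide A it was 18.9% to 26.2%. The 20 biliary epithelial markers took 0.016% to 0.0232%, 0.0278% to 0.144% and 0.0199% to 0.0902% in the same order of groups, and Cftr, Prom1 and Sctr among them stayed under 1 FPKM in all 9 libraries. The label is thus not matched by the leading transcripts, and the levels below are those of RNA rich in hepatocyte transcripts. The 18 macrophage markers took 0.0599% to 0.0786% in sham, 0.193% to 0.28% after ligation, and 0.106%, 0.371% and 0.44% in libraries 1, 2 and 3 with senkyunolide A. Library 1 of the latter group differed from the other two, and the counts of calls for that group are given with and without it.

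After ligation 3 of the 10 genes rose, and 0 fell: Phlda3, Btg2 and Bax. Among all 9884 genes with a mean of at least 1 FPKM, 11% were called, 803 higher and 281 lower, and so 8.12% rose (limma with Benjamini-Hochberg adjustment over all of them, adjusted p under 0.05), and all 10 genes were among those tested. Under median-ratio scaling the split was 545 higher and 468 lower, and under quantile normalization 452 and 473. Cdkn1a had the largest difference of the 10 on the log2(FPKM + 1) scale, though not with a pseudocount of 0.1, where Phlda3 led, and it missed the threshold with both. The genes Trp53, Mdm2, Ccng1, Gadd45a, Trp53inp1 and Gdf15 did not pass either. At an unadjusted p under 0.05 there were 6 of the 10, against 28.6% of all genes, and 9 had a positive difference, against 63.3%. The 3 BDL libraries lay above the 3 sham libraries without overlap in Phlda3, Btg2, Bax and Cdkn1a, 4 of 10 genes, against 21.5% of all genes. The median log2 difference of the 10 was 0.89, against 0.15 over all genes tested. In bulk RNA a change in cell numbers and a change in RNA per cell cannot be told apart.

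**Figure D1:**
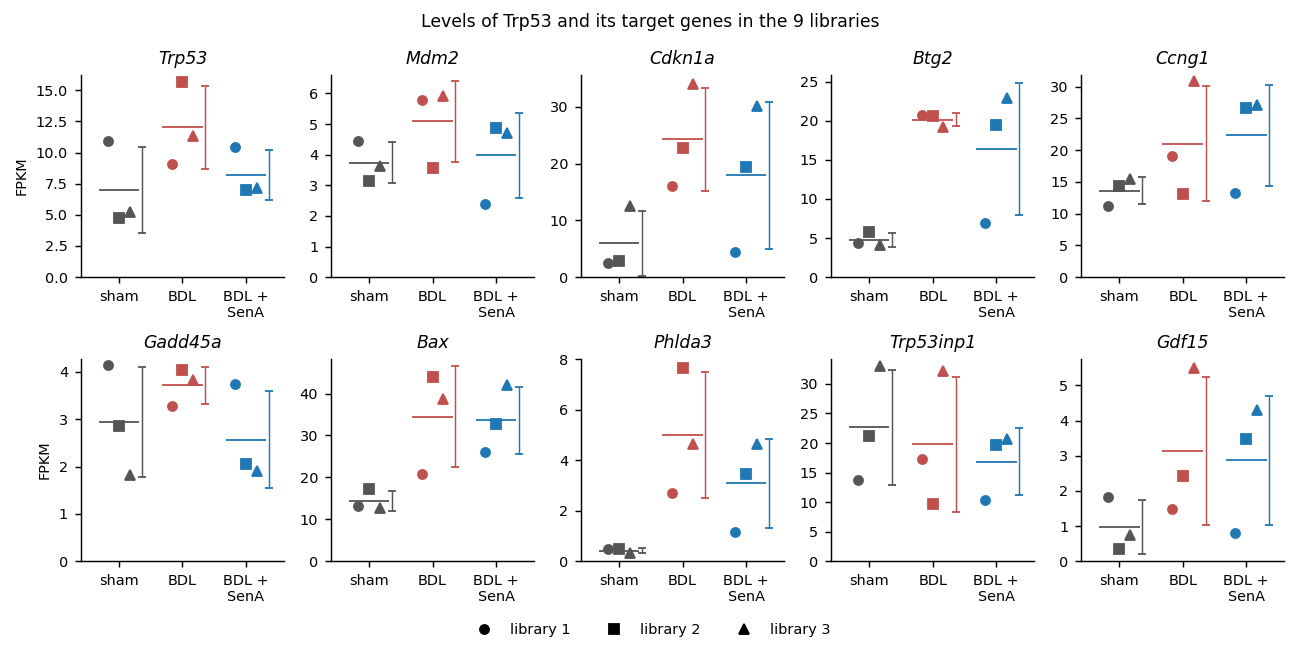
FPKM (vertical axes, linear from 0) of each gene in the 3 groups. Symbols are libraries 1, 2 and 3 of a group, lines the mean and bars to the right of each group the SD (n = 3). Btg2 lay between 19.2 and 20.8 FPKM in BDL, against 4.17 to 5.80 in sham, and BDL plus senkyunolide A library 1 lay at 6.87.

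Trp53 and Mdm2 are the core of the feedback loop. Trp53 (chromosome 11, 69580348 to 69591873, RefSeq on GRCm38.p6, as for all positions here) read 11.0, 4.76 and 5.25 FPKM in sham libraries 1, 2 and 3, and 9.11, 15.7 and 11.4 in BDL libraries 1, 2 and 3. Sham library 1 was above BDL library 1, so the groups overlapped. The log2 difference was 0.76 ± 0.31 (SE), which did not pass (limma, adjusted p = 0.131), and without sham library 1 it was 1.09 and passed (limma, adjusted p = 0.0325). That was the only 1 of 16 alternatives in which Trp53 passed. Over the 16 its difference was 0.54 to 1.09, and the adjusted p in limma reached 0.396. Mdm2 (chromosome 10, 117688875 to 117710758) read 4.45, 3.13 and 3.62 FPKM in sham, and after ligation 5.79, 3.55 and 5.91. BDL library 2, the highest for Trp53, was the lowest of its group for Mdm2 and lay within the sham range. The log2 difference of Mdm2 was 0.35 (95% interval -0.23 to 0.92; limma, adjusted p = 0.424).

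The next 4 genes act on the cell cycle. Cdkn1a (chromosome 17, 29090979 to 29100722) encodes p21, the inhibitor of cyclin-dependent kinases that carries much of the arrest by p53. It read 2.45, 2.80 and 12.6 FPKM in sham, and after ligation 16.0, 22.8 and 34.0. Every BDL library was above every sham library, but sham library 3 lay nearer to BDL library 1 than to its own group. The mean was 4.08 times higher in BDL, and the log2 difference of 2.10 ± 0.64 (SE) had an adjusted p of 0.0594 in limma. Cdkn1a passed with the replicate block (limma, adjusted p = 0.0121), in a fit of the 6 libraries alone (0.0148) and without BDL plus senkyunolide A library 1 (0.0122) or 3 (0.0384). These were the only 4 of 16 alternatives in which it passed, and in each the log2 difference stayed at 2.10. Over all 16 the difference was 1.75 to 2.74, and the adjusted p in limma reached 0.204. Without BDL plus senkyunolide A library 1 the calls were 4 of 10, Cdkn1a, Phlda3, Btg2 and Bax, and 12.8% of all genes rose.

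Btg2 (chromosome 1, 134074865 to 134079155), an antiproliferative cofactor that promotes mRNA deadenylation, was the most even of the risen genes. It read 4.31, 5.80 and 4.17 FPKM in sham, and after ligation 20.8, 20.6 and 19.2. The group means, 4.76 ± 0.906 and 20.2 ± 0.874 FPKM (SD, n = 3), lay many SD apart. The log2 difference was 1.89 ± 0.35 (SE; limma, adjusted p = 0.0117).

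Ccng1 (chromosome 11, 40748552 to 40755309), which encodes the atypical cyclin G1 that recruits a phosphatase to MDM2, read 11.2, 14.3 and 15.4 FPKM in sham, and after ligation 19.0, 13.1 and 30.9. BDL library 2 lay inside the sham range, and the log2 difference of 0.52 did not pass (95% interval -0.22 to 1.26; limma, adjusted p = 0.34). Gadd45a (chromosome 6, 67035096 to 67037407), a stress sensor of growth arrest and DNA repair, read 4.15, 2.86 and 1.82 FPKM in sham, and after ligation 3.29, 4.04 and 3.82. The groups overlapped, and the interval of its log2 difference ran from -0.27 to 0.87 (limma, adjusted p = 0.494).

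Of the 3 genes of cell death and survival, 2 rose. Bax (chromosome 7, 45461695 to 45466903), the pore-forming BCL2 family member of the mitochondrial outer membrane, read 13.3, 17.2 and 12.7 FPKM in sham, and after ligation 20.8, 43.9 and 38.8. BDL library 1 lay closest to sham but above it, and the log2 difference was 1.15 ± 0.29 (SE; limma, adjusted p = 0.0321). Phlda3 (chromosome 1, 135766085 to 135769134), a pleckstrin-homology protein that blocks membrane recruitment of AKT, read 0.463, 0.477 and 0.324 FPKM in sham, and after ligation 2.70, 7.67 and 4.65. It was the least abundant of the 10 genes in sham, with an estimated 13.8 fragments in the lowest library, and its mean was 11.9 times higher in BDL. Its log2 difference was 1.99 ± 0.36 (SE; limma, adjusted p = 0.00996), on a log2(FPKM + 1) scale that understates the change of a gene at so low a level. Trp53inp1 (chromosome 4, 11156441 to 11174379), a stress protein that promotes autophagy and p53-dependent death, was the most abundant of the 10 in sham. It read 13.8, 21.2 and 33.1 FPKM in sham, and after ligation 17.3, 9.75 and 32.2. Its groups spanned nearly the same range, with a log2 difference of -0.26 and a 95% interval from -1.20 to 0.68 (limma, adjusted p = 0.741).

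Gdf15 (chromosome 8, 70629393 to 70632470) encodes a secreted stress cytokine of the TGF-beta superfamily that reduces appetite through a brainstem receptor, and it is also induced by ATF4. It read 1.82, 0.340 and 0.751 FPKM in sham, and after ligation 1.47, 2.43 and 5.50. Sham library 1 was above BDL library 1. The log2 difference of 1.02 ± 0.45 (SE) did not pass (limma, adjusted p = 0.161).

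The order of the genes by mean level changed with ligation. In sham it was Trp53inp1, Bax, Ccng1, Trp53, Cdkn1a, Btg2, Mdm2, Gadd45a, Gdf15 and Phlda3, from 22.7 ± 9.72 to 0.422 ± 0.0845 FPKM (SD, n = 3). In BDL it began with Bax at 34.5 ± 12.1, Cdkn1a at 24.3 ± 9.11, Ccng1 at 21.02 ± 9.06, Btg2 at 20.2 ± 0.874 and Trp53inp1 at 19.8 ± 11.4 FPKM (SD, n = 3), each neighbour in this order differing by less than the larger SD of the pair. Trp53, Mdm2, Phlda3, Gadd45a and Gdf15 followed, with Gdf15 lowest at 3.13 ± 2.10 FPKM. With senkyunolide A the order was Bax at 33.6 ± 7.98, Ccng1 at 22.3 ± 7.89, Cdkn1a at 18.0 ± 12.9, Trp53inp1 at 16.9 ± 5.68, Btg2 at 16.4 ± 8.45 FPKM (SD, n = 3), then Trp53, Mdm2, Phlda3, Gdf15 and Gadd45a. Without library 1 the means of Btg2 and Trp53inp1 changed places, at 21.2 and 20.1 FPKM.

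The 3 calls rested on particular libraries. Without sham library 3 or without BDL library 2, 0 of the 10 genes passed in limma, and the share of all genes called fell from 11% to 1.55% and 1.95%. Phlda3 then had a log2 difference of 1.94 (adjusted p = 0.0518) and 1.69 (0.0561), and Btg2 one of 1.82 (0.0612) and 1.87 (0.058). Bax held its call in 8 of 16 alternative settings, over which its log2 difference was 0.95 to 1.47, whereas Phlda3 and Btg2 held theirs in 14. Median-ratio scaling, which removed the shift of 0.15 in all genes, left Bax at 0.97 (adjusted p = 0.0667), Phlda3 at 1.88 (0.016) and Btg2 at 1.71 (0.0211).

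Other genes showed the closest profiles to the 3 risen ones. Ranked by Pearson's r of log2(FPKM + 1) over the 9 libraries, the nearest to Phlda3 were Laptm5 (0.992), Sdc1 (0.989) and Tnfrsf12a (0.987). The nearest to Btg2 were Cybb (0.995), Gpx7 (0.993) and Cgref1 (0.992), and those to Bax Guca1a (0.988), Siglece (0.981) and Calhm2 (0.98). The libraries share their groups, so these values describe likeness and are given without a test. The nearest genes were not assigned to cell types. The macrophage marker share given above was higher in the 3 BDL libraries than in sham and low in BDL plus senkyunolide A library 1. Of the 18 macrophage markers, 9 rose after ligation, against 8.12% of all genes, and 0 fell. The share of the 10 neutrophil markers went the same way, at 0.000641% to 0.00125% in sham and 0.00864% to 0.0136% after ligation. With senkyunolide A it was 0.00346%, 0.0198% and 0.0176% in libraries 1, 2 and 3. Of the 4 neutrophil markers tested 3 rose after ligation and 0 fell. The biliary epithelial share was likewise higher in BDL than in sham and low in that library 1. The lymphocyte share was also higher in BDL (0.00305% to 0.00511%) than in sham (0.000729% to 0.00259%). With senkyunolide A, however, it was highest in library 1 (0.00256%, against 0.00106% and 0.00191%). The endothelial and the stellate and fibroblast shares of BDL and sham overlapped, with lower means in BDL. The part of these cell types in the levels of the p53 targets was not tested.

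Senkyunolide A in ligated mice gave no call among the 10 genes. In BDL plus senkyunolide A against BDL, limma called 0 of 10, against 0.0101% of all genes. An unadjusted p under 0.05 was reached by 0, against 12.3% of all genes, and 0 separated the groups, against 17.6%. The lowest adjusted p was 0.465, for Gadd45a. The difference was positive in 2 of the 10, against 38.1% of all genes, and its median was -0.37, against -0.12 over all genes.

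**Figure D2:**
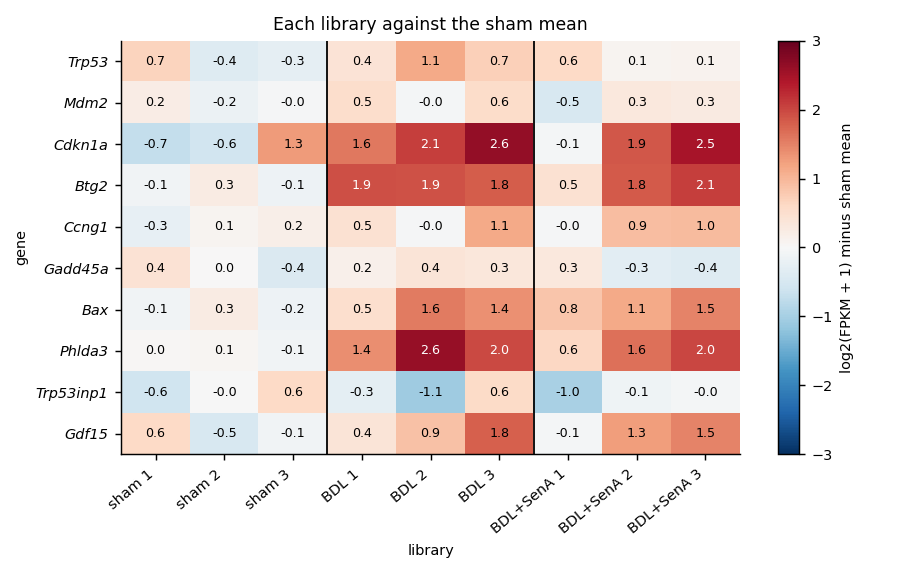
Difference of log2(FPKM + 1) from the sham mean (colour and printed value) for each gene (rows) in each library (columns), with lines between the groups. BDL plus senkyunolide A library 1 had a median over the 10 genes of 0.14, whereas libraries 2 and 3 had 1.04 and 1.22 and the BDL libraries 0.49 to 1.26.

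BDL plus senkyunolide A library 1 was the lowest of its group for 8 of the 10 genes. Cdkn1a read 4.36, 19.4 and 30.1 FPKM in libraries 1, 2 and 3, and Btg2 read 6.87, 19.5 and 22.9. For both genes library 1 lay near sham, and libraries 2 and 3 lay at the levels of BDL. Phlda3 read 1.18, 3.45 and 4.65 FPKM, and Gdf15 0.808, 3.49 and 4.30, with the same order of libraries. Mdm2 read 2.38, 4.86 and 4.69 FPKM, and its library 1 was the lowest of all 9. In 5 of the 10 genes, Cdkn1a, Mdm2, Phlda3, Btg2 and Gdf15, library 1 was the lowest of the 6 libraries from ligated mice. Ccng1 (13.2, 26.6 and 27.1 FPKM), Trp53inp1 (10.3, 19.6 and 20.6) and Bax (26.2, 32.7 and 42.0) were lowest in library 1 within their group.

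Trp53 and Gadd45a had the opposite order. Trp53 read 10.5 FPKM in BDL plus senkyunolide A library 1 against 7.01 and 7.12 in libraries 2 and 3. Gadd45a read 3.75 FPKM there against 2.06 and 1.91. Trp53 in libraries 2 and 3 was below all 3 BDL libraries, and so was Gadd45a, but library 1 of each overlapped with BDL.

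Without library 1 the difference from BDL turned from negative to positive for Cdkn1a (-0.68 to 0.06 on the log2 scale), Btg2 (-0.43 to 0.07), Gdf15 (-0.12 to 0.36) and Trp53inp1 (-0.12 to 0.17). Still 0 of the 10 genes passed in limma, with 0.536% of all genes called. The largest differences were then those of Trp53 (-0.66 ± 0.33 SE; adjusted p = 0.233) and Gadd45a (-0.66 ± 0.25 SE; adjusted p = 0.157). With all libraries the 95% interval of the difference ran from -1.21 to 0.34 for Btg2, from -1.37 to 0.22 for Phlda3, from -2.10 to 0.73 for Cdkn1a and from -0.64 to 0.65 for Bax.

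**Figure D3:**
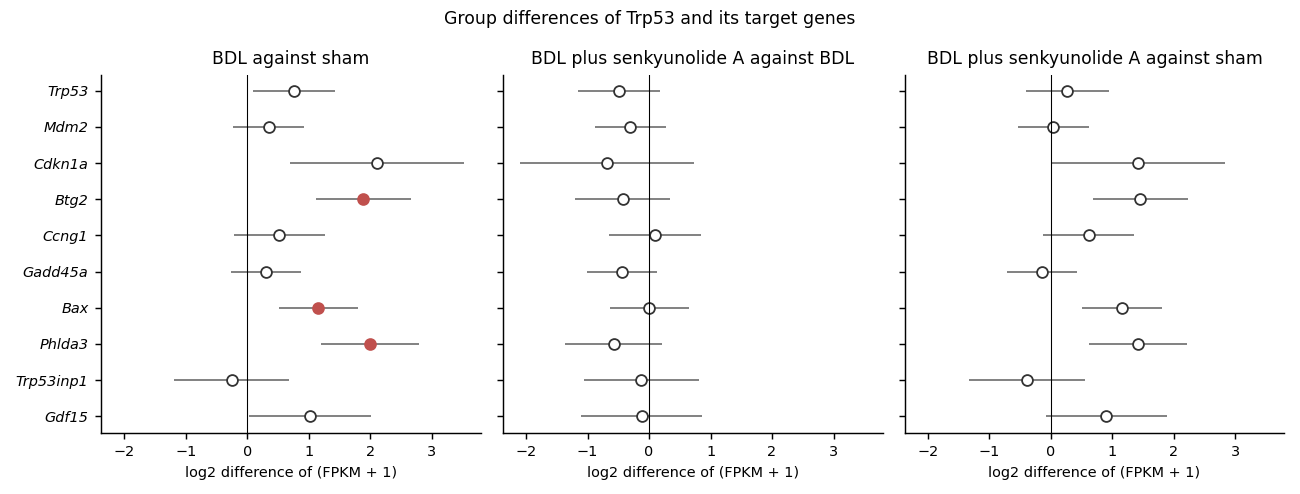
Log2 difference of (FPKM + 1) with its 95% interval from limma (horizontal axes) for each gene in the 3 comparisons. Filled points passed at an adjusted p under 0.05: Phlda3, Btg2 and Bax in BDL against sham, and none in the other comparisons.

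Against sham, the BDL plus senkyunolide A libraries were compared with the same 3 libraries as BDL had been, so both comparisons share their controls. In limma 0 of 10 passed, against 2.17% of all genes called and 1.76% that rose, and 4 had an unadjusted p under 0.05, against 23.2%. Phlda3, Btg2 and Bax lay above sham in all 3 libraries, 3 of 10 genes, against 17.5% of all genes. The log2 differences were 1.46 ± 0.35 (SE) for Btg2 (adjusted p = 0.0535), 1.16 ± 0.29 for Bax (0.0583) and 1.42 ± 0.36 for Phlda3 (0.0584).

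Without library 1 of that group 5 of the 10 genes rose against sham, while the share of all genes that rose went to 12.3%. The 5 were Btg2 with a log2 difference of 1.95 ± 0.21 (SE; limma, adjusted p = 0.000145), Phlda3 with 1.82 ± 0.31 (0.0023), Bax with 1.32 ± 0.31 (0.0129), Cdkn1a with 2.16 ± 0.53 (0.0168) and Gdf15 with 1.38 ± 0.39 (0.0336). With the replicate block and all libraries the count was 3, namely Phlda3, Btg2 and Bax, when 3.21% of all genes rose. The hepatocyte marker share of library 1 was 26.2%, against 18.9% and 20.8% in libraries 2 and 3, and its macrophage share 0.106%, against 0.371% and 0.44%. The part of these cells in its lower target levels was not tested.

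Further p53 targets were read from a list of 32 genes, of which 27 reached a mean of 1 FPKM. After ligation 7 of the 27 rose, against 8.12% of all genes, and 0 fell. The median log2 difference was 0.66, against 0.15 over all genes. Pltp, the phospholipid transfer protein, rose by 1.69 ± 0.38 (SE) on the log2 scale (limma, adjusted p = 0.0215), the lipase Abhd4 by 1.22 ± 0.24 (0.0141), and the heparan sulfatase Sulf2 by 0.99 ± 0.21 (0.0163). Aen, Ddit4 and Sesn2, also among those that rose, fall outside the rule for named genes in BDL against sham and were singled out after their values were seen. The count was 0 without sham library 2, sham library 3 or BDL library 2, when 1.41%, 1.24% and 1.63% of all genes rose. It was 2 with no filter on low values (2.36% of all genes) and 4 under quantile normalization (4.57%). Without BDL plus senkyunolide A library 1 it was 11, when 12.8% of all genes rose.

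These targets gave no call with senkyunolide A against BDL, where limma called 0 of 27. Of the 27, 5 had an unadjusted p under 0.05, against 12.3% of all genes, and 7 lay below BDL without overlap, against 14.3%. Abhd4 read 25.7, 40.2 and 31.3 FPKM in BDL and 16.8, 18.4 and 16.8 with senkyunolide A, a log2 difference of -0.84 ± 0.24 (SE; adjusted p = 0.407). Sesn2, an inhibitor of mTORC1 that is also induced by ATF4, read 2.77, 5.38 and 3.72 FPKM in BDL and 1.55, 1.85 and 2.21 with the compound, a difference of -0.76 ± 0.22 (adjusted p = 0.407). For both genes all 3 libraries with senkyunolide A lay below the 3 BDL libraries, unlike for Cdkn1a and Btg2. Against sham 0 of 27 passed (7 at an unadjusted p under 0.05, against 23.2% of all genes). Without library 1, 4 rose, when 12.3% of all genes did. Pmaip1, which encodes the BH3-only protein NOXA, read 0.417, 2.49 and 2.71 FPKM with senkyunolide A, against 0.152 to 0.330 in sham (1.12 ± 0.32, adjusted p = 0.0718).

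The BCL2 family, to which Bax belongs, holds genes of death and of survival. Of 15 tested relatives of Bax 6 rose after ligation, against 8.12% of all genes, and 0 fell, with a median log2 difference of 0.83, against 0.15 over all genes. Outside the rule for named genes in BDL against sham, and singled out after their values were seen, were the death effector Bak1 and the survival gene Bcl2l1. Mcl1, a survival member, read 13.8, 11.2 and 9.68 FPKM in sham, and after ligation 25.5, 22.8 and 18.6 (0.89 ± 0.24 SE; limma, adjusted p = 0.0354). The survival genes Bcl2a1d, Bcl2a1a and Bcl2a1b of leukocytes rose by 0.83 ± 0.18, 1.01 ± 0.26 and 1.94 ± 0.54. Of 16 alternatives, the call of Mcl1 ended in 9, that of Bcl2a1d in 4, that of Bcl2a1a in 7 and that of Bcl2a1b in 10. The Bcl2a1 genes are near-identical copies between which reads may have been divided. Like them, the macrophage share was higher in BDL than in sham. In BDL plus senkyunolide A library 1 that share was 0.106%, below the 0.193% to 0.28% of BDL. Bcl2a1a and Bcl2a1b were also below BDL there, at 0.613 and 3.41 FPKM, but Bcl2a1d read 1.55 FPKM, against 1.09 to 1.54 in BDL. The part of these cells was not tested. Against sham Bcl2a1d alone rose in the BDL plus senkyunolide A libraries (1.32 ± 0.18; limma, adjusted p = 0.017), a call that ended in 6 of 16 alternatives, and 6 relatives rose without library 1, when 12.3% of all genes did. Against BDL limma called 0 of 15 (1 at an unadjusted p under 0.05, against 12.3% of all genes). Bcl2a1d differed there by 0.49 ± 0.18 and the survival gene Bcl2l1 by -0.34 ± 0.22. The count after ligation was 0 without sham library 2, sham library 3 or BDL library 2, when 1.41%, 1.24% and 1.63% of all genes rose. It was 0 under quantile normalization (4.57% of all genes) and 1 with no filter on low values (2.36%). It was 2 under median-ratio scaling (5.51%) or without BDL plus senkyunolide A library 2 (6.32%). Leaving out library 1 of that group gave 9, when 12.8% of all genes rose.

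**Figure D4:**
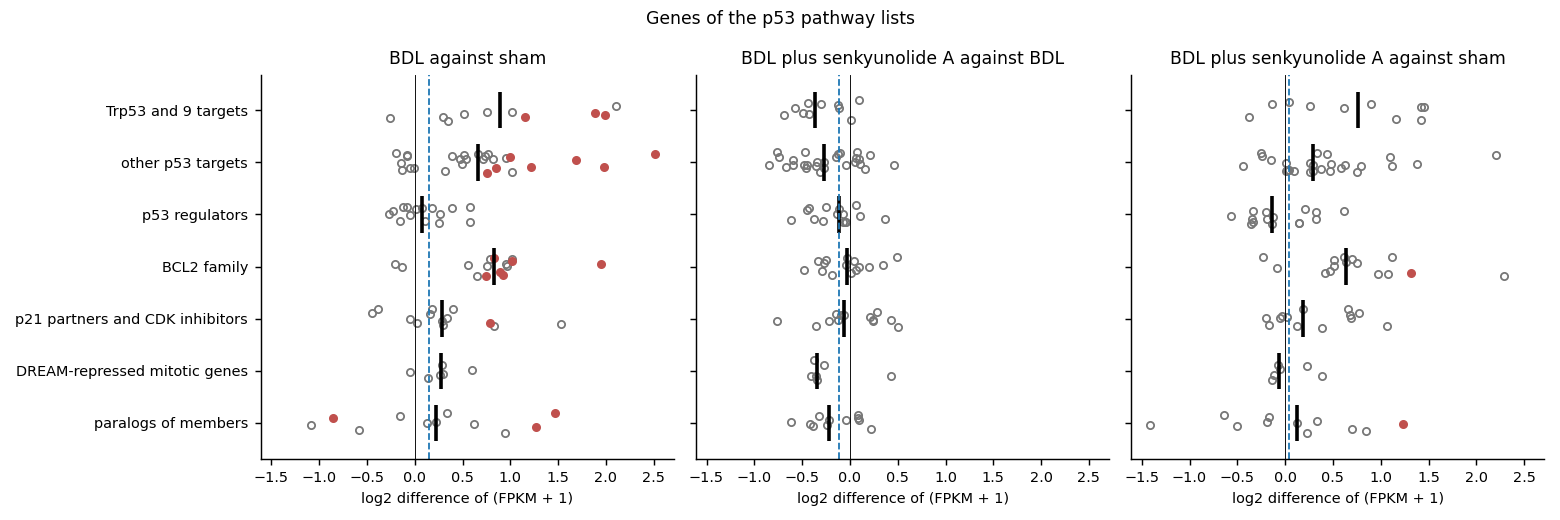
Log2 difference of (FPKM + 1) (horizontal axes) of each tested gene (points, scattered vertically for legibility) in 7 lists, for the 3 comparisons. Filled points passed in limma, black bars are list medians and the dashed line is the median of all genes tested. In BDL against sham the medians were 0.89 for Trp53 and its 9 targets, 0.66 for other p53 targets and 0.07 for p53 regulators, against 0.15 for all genes.

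Regulators of p53 gave no call in any comparison, with or without BDL plus senkyunolide A library 1. After ligation limma called 0 of 15 tested genes (1 at an unadjusted p under 0.05, against 28.6% of all genes), and the median was 0.07. Rpl5, a ribosomal protein that can bind MDM2, had a difference of 0.57 ± 0.21 (adjusted p = 0.0959) and the chaperone Daxx one of 0.58 ± 0.27 (0.185). With senkyunolide A against BDL 0 of 15 passed (1 at an unadjusted p under 0.05, against 12.3% of all genes). The DNA damage kinase Atr differed by -0.61 ± 0.19 (adjusted p = 0.407) and Rpl11 by 0.37 ± 0.22 (0.464). Against sham 0 of 15 passed (1 at an unadjusted p under 0.05, against 23.2% of all genes). Rpl11 differed there by 0.62 ± 0.22 (adjusted p = 0.122) and the ubiquitin ligase Cop1 by -0.33 ± 0.18 (0.296).

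Genes of the cell cycle machinery that p21 acts on mostly did not pass. Of 13 tested cyclins, kinases and inhibitors 1 rose after ligation, a share near the 8.12% of all genes. It was Cdkn2c, the gene of the CDK4 and CDK6 inhibitor p18, which went from 3.66, 3.39 and 2.83 FPKM to 6.23, 7.06 and 5.88 (0.79 ± 0.18 SE; limma, adjusted p = 0.0226). Cdkn2c lost its call in 5 of 16 alternatives. Against BDL 0 of 13 passed with senkyunolide A (0 at an unadjusted p under 0.05, against 12.3% of all genes). Ccnd1, the gene of cyclin D1, differed there by -0.76 ± 0.52 (adjusted p = 0.503) and Pcna by 0.51 ± 0.39 (0.541). Against sham 0 of 13 passed (3 at an unadjusted p under 0.05, a share near the 23.2% of all genes). Without library 1, 4 rose, against 12.3% of all genes. Cdkn2d, the gene of the inhibitor p19, had a difference of 1.07 ± 0.26 (adjusted p = 0.0535) and Cdkn2c one of 0.66 ± 0.18 (0.0661).

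Mitotic genes that p53 represses through p21 and the DREAM complex were low. Of 14 listed 6 reached a mean of 1 FPKM, and in limma 0 of 6 passed in each of the 3 comparisons. An unadjusted p under 0.05 was reached by 0 in each, against 28.6% of all genes in BDL against sham. With senkyunolide A that share of all genes was 12.3% against BDL and 23.2% against sham. Birc5, which encodes survivin, read 0.4996, 2.09 and 1.13 FPKM in sham, and after ligation 0.579, 0.895 and 10.5, so that BDL libraries 1 and 2 lay within the sham range. Ccnb1, the gene of cyclin B1, was also highest in BDL library 3, and without it their log2 differences turned from 0.60 and 0.30 to -0.31 and -0.67. Cdk1, the mitotic kinase, differed by 0.43 ± 0.46 with senkyunolide A against BDL and by 0.38 ± 0.46 against sham, and the centromeric histone Cenpa by -0.27 ± 0.34 and -0.14 ± 0.34.

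Among 11 tested relatives of the 10 genes, 2 rose and 1 fell after ligation, when 11% of all genes were called and 8.12% rose. Btg3, of the same antiproliferative family as Btg2, read 3.13, 3.63 and 2.82 FPKM in sham, and after ligation 12.1, 9.20 and 10.6, a log2 difference of 1.47 ± 0.22 (SE; limma, adjusted p = 0.006) that passed in all 16 alternatives. It also rose against sham in the BDL plus senkyunolide A libraries, at 6.31, 10.8 and 9.92 FPKM (1.23 ± 0.22, adjusted p = 0.0314, lost in 8 of 16 alternatives). Gadd45b, a stress-induced relative of Gadd45a, rose from 0.359 to 0.972 FPKM across sham to 2.92 to 3.53 across BDL (1.27 ± 0.29, adjusted p = 0.021, lost in 4 of 16 alternatives), whereas Gadd45a did not pass. Trp53inp2, an autophagy gene related to Trp53inp1, fell from 55.5, 43.6 and 52.8 to 19.6, 29.3 and 36.0 FPKM (-0.85 ± 0.24, adjusted p = 0.0471), a call that ended in 10 of 16 alternatives. Against BDL 0 of 11 passed with senkyunolide A (0 at an unadjusted p under 0.05, against 12.3% of all genes). The antiproliferative genes Tob1 and Tob2 differed there by -0.39 ± 0.22 and -0.61 ± 0.38. Without BDL plus senkyunolide A library 1, limma called 0 genes of these 6 lists against BDL, and 0.536% of all genes. Against sham 2 of the 11 relatives then rose and 1 fell, when 18.3% of all genes were called and 12.3% rose.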

How the data were processed

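The authors deposited 1 table of FPKM for 22173 genes in 9 libraries, made from polyA RNA per the labels' protocols. Tools named in the submitters' processing notes are HISAT2 2.0.5, featureCounts 1.5.0-p3, fastp, CASAVA 1.8 and DESeq2 1.20.0, on GRCm38 (mm10). Neither their settings nor annotation and strandedness are given in the sources used here. FPKM are relative to the library total, so abundant genes lower all others.

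Genes with a mean of at least 1 FPKM (9884) were tested on log2(FPKM + 1) with limma 3.58.1 in R 4.3.3, in 1 fit of the 3 groups with a variance trend, two-sided, with calls at an adjusted p (Benjamini-Hochberg) under 0.05. The procedure was tested on simulated data. No label ties libraries to separate animals, so the p-values reflect only the spread among the libraries, possibly a technical one. Within groups the correlation of log2(FPKM + 1) over all genes was 0.965 to 0.996, and no library was merged. Counts were not recovered, and depth was estimated from the FPKM of genes with a lone transcript in GENCODE M21.

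The genes and lists were chosen with earlier results of these data known. Some lists share genes (Bbc3, Pmaip1, Cdk1, Ccnb1, Cdkn1b, Cdkn1c, Cdkn2a and Mdm4). All 10 genes are named, with up to 4 called genes of smallest p per list and comparison, or 2 as values where none passed, and the 3 nearest profiles of each called gene. Some genes that this rule takes in are not reported here. Alternatives were another pseudocount (0.1), no filter, median-ratio and quantile scaling, no variance trend, a replicate block, the 6 libraries compared alone, and each library left out. Promoter sequences are RefSeq's.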

Additional observations from a re-analysis of the deposited data

How the results depend on the processing

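Among the 10 genes, 3 passed after ligation, 0 with senkyunolide A relative to BDL and 0 with it relative to sham. Over 16 alternatives the first count stayed within 2 to 4 except without sham library 3 or BDL library 2, and was 0 to 4 with a library left out, and the second was 0 throughout. The last count became 2 with a pseudocount of 0.1 and 3 with the replicate block, and 0 to 5 with a library left out. Over all genes, the count in BDL against sham was 1084 (803 higher and 281 lower), 520 with no filter and 153 to 1722 with a library left out. It split into 545 higher and 468 lower with median-ratio scaling and 452 and 473 with quantile normalization. In BDL plus senkyunolide A against BDL the count was 1, and it was 0 with the replicate block, 0 in a fit of the 6 libraries alone and 0 to 62 with a library left out. In BDL plus senkyunolide A against sham it was 214 (174 higher and 40 lower), 418 with a pseudocount of 0.1, 3 with no filter, 133 with median-ratio scaling, 42 with quantile normalization (28 higher and 14 lower), 374 with the replicate block, 60 in a fit of the 6 libraries alone and 0 to 1806 with a library left out. The cause was not tested.

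Signs changed only for log2 differences that had not passed. With median-ratio scaling Trp53inp1 in BDL plus senkyunolide A against BDL turned to 0.0070 and Mdm2 against sham to -0.00071, with quantile normalization Mdm2 to -0.00073, and with a pseudocount of 0.1 Ccnb1 in BDL against sham to -0.26. With a library left out, the ranges in BDL against sham were -0.67 to 0.14 for Trp53inp1, -0.31 to 1.12 for Birc5 and -0.67 to 0.82 for Ccnb1. In BDL plus senkyunolide A against BDL they were -1.21 to 0.059 for Cdkn1a, -0.74 to 0.066 for Btg2, -0.18 to 0.42 for Ccng1, -0.43 to 0.36 for Gdf15, -0.52 to 0.29 for Trp53inp1, -0.31 to 0.21 for Bax and -0.54 to 0.19 for Cenpa. Against sham they were -0.10 to 0.30 for Mdm2 and -0.36 to 0.077 for Gadd45a.

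The labels do not say whether equal replicate numbers mark paired libraries, and with 3 libraries a group the correlations cannot decide it. Deviations of equally numbered libraries from their group means correlated at -0.39 to 0.25, over 0.1 in 3 of 9 pairs, and a library correlated best with its own number in 3 of 18 cases. With the block, 4 of the 10 genes passed in BDL against sham, when 8.92% of all genes did. At the lowest levels depth limits precision, with an estimated 13.8 fragments for Phlda3 and 18.0 for Gdf15 in their lowest libraries. Such estimates lay within 0.05 of a whole number in 6 libraries for Gdf15 but in 0 for Phlda3, so that of Phlda3 is only approximate.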
